A study of Mus musculus with 16 samples.

Results

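The regions described here held an ATAC-seq peak in DN, DP and SP4 thymocytes and no peak in SP8 thymocytes, and are called no-SP8 regions. They were chosen by the peak calls themselves. Overlapping peaks of the 4 stage lists (1 bp or more in common) were joined, which gave 185978 regions, and those with DN, DP and SP4 peaks and none from SP8 were kept. These numbered 5837, 3.14% of all merged regions and 8.43% of the 69206 regions called at DN, DP and SP4. DN, DP, SP4 and SP8 cells were sorted from the thymus of 4 wild type C57BL/6J mice at 9 weeks of age, which gave 16 libraries. No agent was given and no allele was changed in any of them. The sorted DN cells lacked CD4, CD8, CD3 and lineage markers, DP cells carried CD4 and CD8, and SP4 and SP8 cells carried CD3 with CD4 or CD8 alone. The reads of the 4 mice were pooled before peaks were called, so that each stage was 1 list with no spread between mice, and no test between stages was possible. A region without an SP8 peak had no call past the threshold there, which does not show that the chromatin was closed.

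ATAC-seq relies on a transposase that cuts and tags DNA where it is accessible, mostly at open promoters and enhancers. Thymocytes pass from the double negative stage, where T lineage commitment and rearrangement of the T cell receptor beta gene take place, to the double positive stage, where the receptor alpha gene is rearranged and selection begins. Selected cells become CD4 single positive helper precursors or CD8 single positive cytotoxic precursors. E proteins such as TCF3 and TCF12 bind E-box sequences and are most active before and during the DP stage. ETS, RUNX and TCF7/LEF1 factors act throughout the lineage, and RUNX3 is known for silencing *Cd4* in the CD8 lineage.

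The sequences below come from the 12 no-SP8 regions that were highest at their weakest stage, and show what such elements look like. Each line gives the reference sequence (mm10, plus strand, RefSeq assembly) from 50 bp before to 50 bp after the summit of the highest peak, named by the protein-coding gene that the region lies in or nearest to. Capitals mark matches on either strand. The motifs marked were an ETS motif spelled AGGAAGT, a pair of E-boxes of which the first reads CAGCTG and the second has CAGGTG, the TCF7/LEF1 motif TCAAAG, the RUNX motif TGTGGT and the motif of GATA factors, AGATAA. The promoter form of the ETS motif, CCGGAAG, and the CTCF core were marked as well. The ETS forms differ in the letter before their shared core, so that they cannot match at the same place.
Babam2: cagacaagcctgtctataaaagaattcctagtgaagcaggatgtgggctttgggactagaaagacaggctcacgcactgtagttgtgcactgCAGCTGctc
Trim29: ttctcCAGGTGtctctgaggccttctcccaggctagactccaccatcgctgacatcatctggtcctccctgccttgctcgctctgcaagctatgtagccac
Ntn1: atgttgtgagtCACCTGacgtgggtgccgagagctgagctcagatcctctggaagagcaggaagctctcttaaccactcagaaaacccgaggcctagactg
Ano6: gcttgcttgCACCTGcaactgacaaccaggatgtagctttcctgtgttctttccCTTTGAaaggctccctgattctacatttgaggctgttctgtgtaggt
Gm20388: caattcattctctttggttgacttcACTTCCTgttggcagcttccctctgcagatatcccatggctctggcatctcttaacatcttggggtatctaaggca
Tns3: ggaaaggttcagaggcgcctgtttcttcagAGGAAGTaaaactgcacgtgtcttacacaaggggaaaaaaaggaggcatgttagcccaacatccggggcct
Pnkd: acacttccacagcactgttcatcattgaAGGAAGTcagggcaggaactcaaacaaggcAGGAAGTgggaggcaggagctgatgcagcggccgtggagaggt
Man1a: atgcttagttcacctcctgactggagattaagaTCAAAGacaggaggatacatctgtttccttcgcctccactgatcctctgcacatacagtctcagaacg
Ankrd50: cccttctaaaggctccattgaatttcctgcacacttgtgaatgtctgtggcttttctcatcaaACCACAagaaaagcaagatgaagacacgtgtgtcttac
Litaf: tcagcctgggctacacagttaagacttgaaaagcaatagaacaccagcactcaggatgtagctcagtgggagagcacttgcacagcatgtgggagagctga
4930432M17Rik: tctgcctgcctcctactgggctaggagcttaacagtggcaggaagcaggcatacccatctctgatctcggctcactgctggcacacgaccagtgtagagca
Pex7: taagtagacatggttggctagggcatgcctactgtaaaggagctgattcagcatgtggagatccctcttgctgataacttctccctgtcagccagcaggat
ETS matches were present in 3 of these 12 windows, CAGGTG in 3, TCF7/LEF1 in 2, CAGCTG in 1 and RUNX in 1. The window at *Pnkd* held 2 ETS matches, and that at *Ano6* held an E-box beside a TCF7/LEF1 match. GATA, CTCF and the promoter form of the ETS motif had 0 matches in these windows. The windows at *Litaf*, *4930432M17Rik* and *Pex7* held none of the marked motifs.

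Peaks were compared by height, the percent of peaks of the same stage that had a lower fold enrichment, called the percentile here. Heights of no-SP8 regions are a description, since the calls that give them also chose the regions. Their median percentile was 50.9 at DN, 39.0 at DP and 28.5 at SP4, with median fold enrichments over the local background of 5.71, 4.58 and 4.27. The middle 50% of the percentiles ran from 29.3 to 71.0 at DN, from 21.9 to 55.1 at DP and from 14.8 to 45.01 at SP4. Regions called at all 4 stages, 63369 in number, had medians of 73.5 (DN), 68.2 (DP) and 69.4 (SP4). No-SP8 regions were thus of ordinary height at DN and low at SP4.

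**Figure D1:**
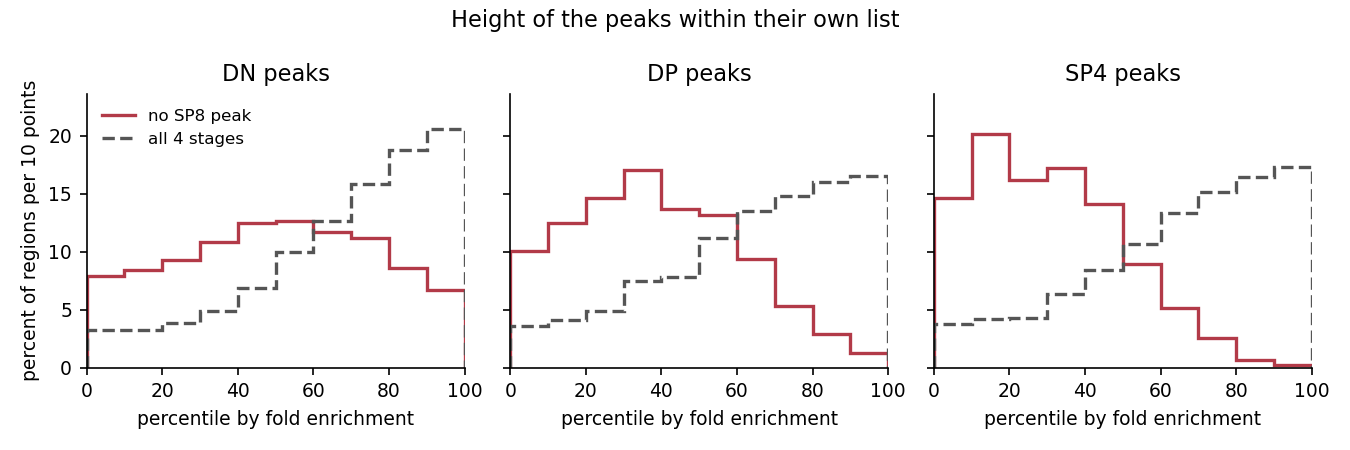
Distribution of peak height in the 5837 no-SP8 regions (solid) and in the 63369 regions called at all 4 stages (dashed), for DN, DP and SP4 peaks. The x axis is the percentile by fold enrichment within the list of the stage and the y axis the percent of regions per 10 percentile points. The no-SP8 regions lie towards low percentiles, most clearly at SP4, where the median was 28.5 against 69.4.

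The percentile was highest at DN in 3333 no-SP8 regions (57.1%), at DP in 1498 (25.7%) and at SP4 in 1006 (17.2%). In regions called at all 4 stages the shares were 40.8%, 26.2% and 33.0%. A stepwise order, DN above DP above SP4, held in 2082 no-SP8 regions (35.7%, 95% Wilson interval 34.4 to 36.9%) and in 22.0% of the regions called at all 4 stages. The reverse order, SP4 above DP above DN, held in 472 (8.09%) and 16.4%. Few no-SP8 regions were strong at all 3 stages. In 365 of them (6.25%) all 3 percentiles were above 50, against 58.2% of the regions called at all 4 stages. All 3 were above 75 in 8 no-SP8 regions. Single strong stages were more frequent, with 1196 regions above the 75th percentile at DN, 372 at DP and 116 at SP4.

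Regions that lack a peak at SP8 were read beside those that lack only one of the other stages. The class without an SP4 peak held 4172 regions, 6.18% of the 67541 regions called at the other 3 stages. The class without a DP peak held 7539 (10.6% of 70908) and the class without a DN peak 3286 (4.93% of 66655). No-SP8 regions were more numerous than no-SP4 regions on 19 of 19 chromosomes. The share of DN, DP and SP4 regions without an SP8 peak ran from 6.98% on chromosome 10 to 10.2% on chromosome 16. The SP8 list was the shortest of the 4, with 104411 peaks against 150139 (DN), 107110 (DP) and 115074 (SP4). When every list was shortened by q-value to the length of the SP8 list, the same rule gave 3472 no-SP8 regions. No count of no-SP4 regions at equal length stands beside it. The part of list length in the larger number of no-SP8 regions was not tested.

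The share without an SP8 peak fell with the height of the region at the other stages. Among the 69206 regions called at DN, DP and SP4, ordered by their mean percentile and cut into 10 bins of equal size, 23.5% of the lowest bin lacked an SP8 peak. The share was 21.4% in the next bin and then 16.2%, 10.8%, 6.63%, 3.73%, 1.52%, 0.506% and 0.0867%. In the highest bin it was 0 of 6920 regions, which allows a share of up to 0.0434%. The lowest 3 bins held 4227 no-SP8 regions (72.4%) and the highest 5 bins 404 (6.92%). Wilson intervals and this upper limit cover counting error only. Ordered in the same way by the other stages, the second lowest bin lacked an SP4 peak in 15.8% and a DP peak in 24.1%. The share of 21.4% without an SP8 peak stood between these, with Wilson intervals that did not overlap. In the lowest bin the shares without an SP8 (23.5%) and an SP4 peak (24.2%) had overlapping intervals. The fall with height was common to all 4 stages. In the highest bin 3 of 6754 regions (0.0444%) lacked an SP4 peak, 6 of 6665 (0.0900%) a DN peak and 34 of 7090 (0.480%) a DP peak.

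**Figure D2:**
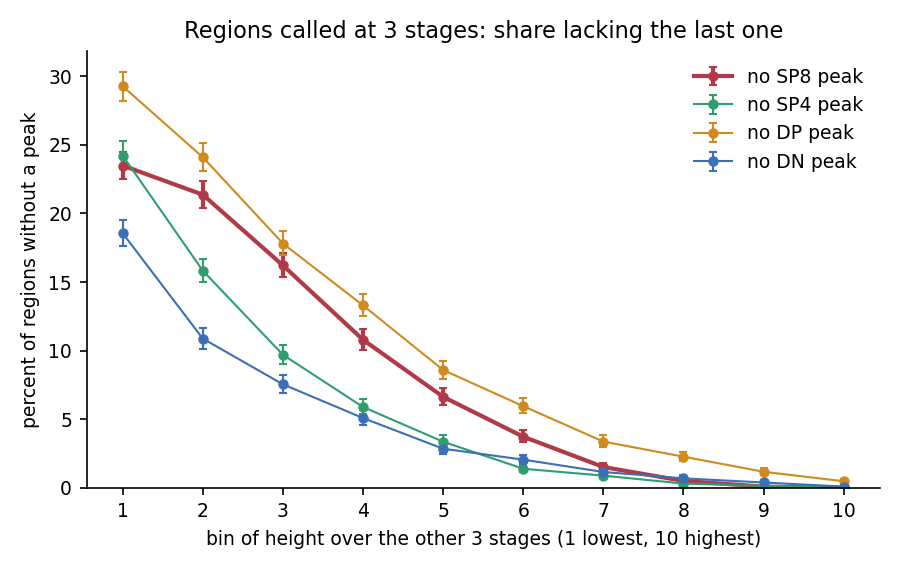
Share of regions without a peak at the stage named, among regions called at the other 3 stages, in 10 bins of their mean percentile over those 3 stages. Points are percentages and bars 95% Wilson intervals, for counting error only. The share without an SP8 peak falls from 23.5% in the lowest bin to 0 in the highest.

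Regions at the edge of the rule had low or middle heights. Calls began at a −log10 q of 1.33 in the SP8 list. Of the regions called at all 4 stages, 235 had an SP8 peak whose −log10 q was under 3, and their median mean percentile over DN, DP and SP4 was 42.4. It was 40.8 in no-SP8 regions and 68.5 in all regions called at the 4 stages. On the inner side, 414 no-SP8 regions had a −log10 q under 3 at DN, DP or SP4, with a median mean percentile of 25.6. The nearest SP8 peak began or ended within 10 bp in 5 no-SP8 regions.

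Neighbouring SP8 peaks were mostly some kilobases away. The median distance from a no-SP8 region to the nearest SP8 peak was 3837 bp. Within 500 bp there was an SP8 peak at 1023 regions (17.5%), within 1 kb at 1543 (26.4%) and within 10 kb at 4474 (76.6%). The corresponding distance was 1549.5 bp from no-SP4 regions to an SP4 peak, 3416 bp from no-DP regions to a DP peak and 1405.5 bp from no-DN regions to a DN peak. The DN list, with the most peaks, leaves the least space between them, and the part of list length in these distances was not tested. Leaving out the no-SP8 regions with an SP8 peak within 500 bp left 4814 regions.

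**Figure D3:**
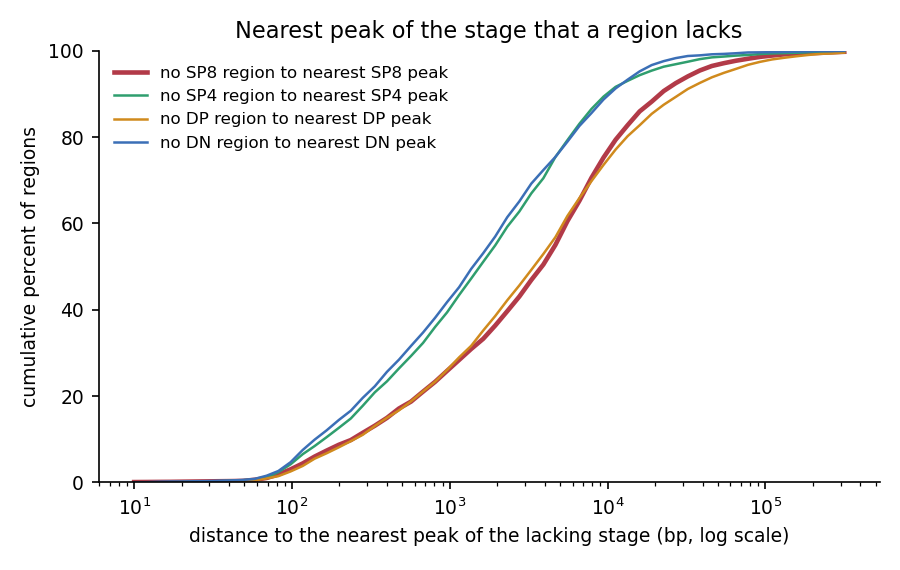
Cumulative share of regions of each class (y axis, percent) within a given distance (x axis, bp, log scale) of the nearest peak of the stage they lack. Medians are 3837 bp for no-SP8 regions, 3416 bp for no-DP, 1549.5 bp for no-SP4 and 1405.5 bp for no-DN regions.

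No-SP8 regions lay mainly away from promoters and exons. A promoter, the 200 bp upstream of a transcriptional start site (TSS), was overlapped by 464 regions (7.95%, Wilson interval 7.28 to 8.67%). The share was 25.1% in regions called at all 4 stages, and 17.1% when these were weighted to the heights of the no-SP8 regions. It was 11.5% in no-SP4, 5.49% in no-DP and 7.09% in no-DN regions. The no-SP8 share was below that of regions called at all 4 stages on 19 of 19 chromosomes, below that of no-SP4 regions on 15 and above that of no-DP regions on 19. An exon but no promoter was overlapped by 807 regions (13.8%). The remaining 4566 (78.2%, 77.1 to 79.3%) were distal, 2376 of them within a protein-coding gene and 2190 between genes. The distal share was 71.1% in no-SP4, 81.6% in no-DP, 79.8% in no-DN and 61.9% in regions of all 4 stages (66.9% weighted to height).

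The median distance of no-SP8 regions to a TSS was 5963 bp (95% interval of the median 5662 to 6219 bp), against 3183 bp in regions called at all 4 stages and 4242.5 bp in no-SP4 regions. It was larger than in either on 19 of 19 chromosomes. No-DP and no-DN regions, at 6151 and 6157.5 bp, had intervals that overlapped that of the no-SP8 regions. Counting protein-coding transcripts alone moved the medians to 17201 bp (no-SP8), 10446 bp (no-SP4) and 9574 bp (all 4 stages), in the same order. No-DP and no-DN regions moved to 16564 and 16679 bp, now below the no-SP8 median. No-SP8 regions had a median width of 265 bp and covered 1792292 bp, 2.97% of all merged sequence. Their mean G+C content within 100 bp of the summit was 51.7%, between no-SP4 regions (53.9%) and no-DP regions (47.7%), in the same order on 19 of 19 chromosomes. They held 3.58 CpG dinucleotides in this window, against 6.24 in regions called at all 4 stages (5.52 weighted to height). Repeats made up 13.6% of these windows, against 11.01%.

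Regions highest at DN had the largest promoter share. Of the no-SP8 regions highest at DN, 9.51% (8.56 to 10.6%) were at promoters, against 5.74% (4.67 to 7.04%) of those highest at DP and 6.06% (4.75 to 7.71%) of those highest at SP4. The distal shares were 76.6%, 79.6% and 81.5%. The 1006 regions highest at SP4 were the narrowest, with a median of 218.5 bp, against 294 bp for regions highest at DN and 243 bp for regions highest at DP.

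At the summits, the ETS share of no-SP8 regions differed from that of every class compared, the E-box shares from all but the no-SP4 regions and the CTCF share from all but the no-DN regions. Motif matches were not used to choose the regions. A motif was counted where its letters occurred on either strand within 100 bp of the summit of the highest peak of the region, a wider window than the one printed above. Of 28 motifs, 8 had a higher share in no-SP8 regions than in regions called at all 4 stages, 9 a lower share and 11 overlapping Wilson intervals. Against no-SP4 regions, the other class that lacks one SP stage, 4 were higher, 5 lower and 19 overlapped. A match is a description of the letters and no sign of binding.

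The ETS motif AGGAAGT was present in 23.1% of no-SP8 regions, against 14.5% of no-SP4, 13.7% of no-DP, 19.9% of no-DN and 16.7% of regions called at all 4 stages. Among all merged regions the share was 15.5%. The log2 ratio of shares was 0.67 to no-SP4 regions and 0.47 to regions of all 4 stages, higher on 19 of 19 chromosomes in both. It was higher than in no-DN regions on 15 of 19. Weighting the regions of all 4 stages to the height of the no-SP8 regions lowered their share to 14.3%. Counting only matches outside repeats gave 19.3% (18.3 to 20.3%) in no-SP8 regions, 11.8% in no-SP4 and 14.4% in regions of all 4 stages. Distal no-SP8 regions had a match in 24.3% and distal regions of all 4 stages in 19.6%. A second ETS match in the same window, as at *Pnkd*, was present in 2.28% of no-SP8 regions, 0.983% of no-SP4 regions and 1.51% of regions of all 4 stages. The share with any ETS match was similar in no-SP8 regions highest at DN (22.0%), DP (24.4%) and SP4 (25.1%). The promoter form of the motif, CCGGAAG, was by contrast lower than in regions of all 4 stages (2.30% against 5.16%). Among distal regions its shares were 1.91% and 2.73%.

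E-boxes were most frequent in the classes that lacked a peak at one SP stage. CAGCTG was present in 24.5% of no-SP8 and 24.0% of no-SP4 regions, against 11.2% of no-DP, 10.2% of no-DN and 17.6% of regions of all 4 stages. CAGGTG was present in 29.5% and 28.5%, against 13.9%, 14.7% and 22.1%. No-SP8 and no-SP4 regions had overlapping intervals for both E-boxes. Over all merged regions the shares were 18.3% (CAGCTG) and 23.4% (CAGGTG). Either E-box was present in 47.3% of no-SP8, 45.7% of no-SP4, 23.8% of no-DP, 23.5% of no-DN and 35.5% of regions of all 4 stages. An ETS match and an E-box occurred together in 9.47% (8.75 to 10.2%) of no-SP8 regions, 5.87% of no-SP4, 2.67% of no-DP, 4.02% of no-DN and 5.51% of regions of all 4 stages. Joint shares rise with the single shares, and whether the motifs occurred together beyond these was not tested. Within no-SP8 regions the E-boxes were fewest where the peak was highest at SP4. CAGGTG was present in 18.3% of these, against 31.4% of regions highest at DN and 33.0% of regions highest at DP. A region cannot have its summit at the stage it lacks, so the classes differ in the stage of the summit. The part of this in the class differences was not tested.

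The no-SP8 regions of the upper 5 bins of height carried the most E-boxes. CAGGTG was present in 48.5% (43.7 to 53.4%) of these 404 regions and in 22.9% of the 34199 regions of all 4 stages in the same bins. CAGCTG was present in 38.9% (34.2 to 43.7%) and 19.3%, and the ETS motif in 28.2% (24.1 to 32.8%) and 18.3%. In the lowest 3 bins, the shares in 4227 no-SP8 regions and 16535 regions of all 4 stages were 27.0% and 20.6% for CAGGTG, 21.6% and 14.6% for CAGCTG, and 21.5% and 13.6% for ETS. The differences had the same direction at both ends of the range. Heights were not matched within these groups of bins. Of the 404 no-SP8 regions, 258 lay in the lowest of the upper 5 bins, although the bins were of equal size.

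Other motifs were lower or varied with the class used for comparison. The CTCF core, bound by the insulator protein CTCF, was present in 1.92% of no-SP8 regions, 4.15% of no-SP4, 5.24% of no-DP, 2.34% of no-DN and 7.04% of regions of all 4 stages (3.73% of all merged regions). It was lower than in regions of all 4 stages on 19 of 19 chromosomes and remained so within the lowest 3 bins of height (2.29% against 6.84%). SP (GGGGCGG, 3.05% against 9.41%) and EGR (GTGGGCG, 1.25% against 3.76%) were also lower than in regions of all 4 stages. Among distal regions these differences were smaller, 2.04% against 3.40% (SP) and 0.942% against 2.03% (EGR). The SP interval overlapped that of no-DP regions (2.56%). The EGR interval overlapped those of no-DP (1.76%) and no-DN regions (1.86%). RUNX was present in 22.3% of no-SP8 regions, below no-SP4 (28.6%) and no-DP (33.7%), above no-DN (15.9%) and with an interval that overlapped that of regions of all 4 stages (23.2%). Over all merged regions its share was 25.3%. TCF7/LEF1 was present in 17.3%, above no-SP4 (14.0%) and regions of all 4 stages (14.7%) and below no-DN regions (20.2%), against 16.02% of all merged regions. GATA was present in 8.15%, against 5.97% of no-SP4, 10.7% of no-DP, 7.52% of no-DN, 6.96% of regions of all 4 stages and 8.11% of all merged regions.

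**Figure D4:**
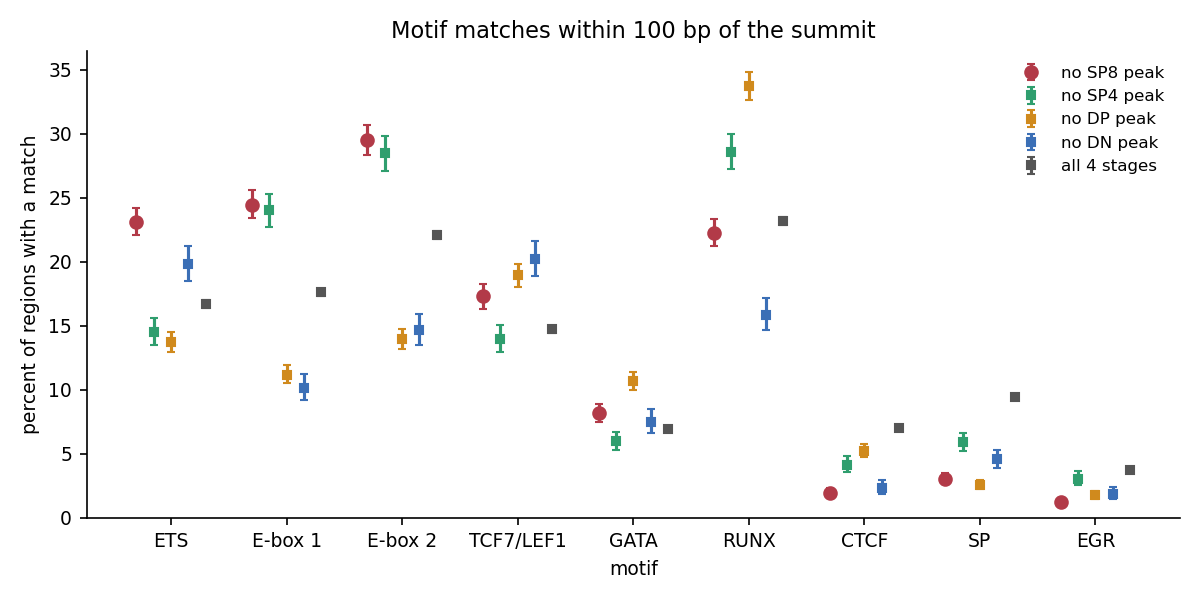
Share of regions with a motif match within 100 bp of the summit, for the 4 classes that lack 1 stage and the regions of all 4 stages. E-box 1 is CAGCTG and E-box 2 is CAGGTG, points are percentages and bars 95% Wilson intervals. No-SP8 regions stand highest for ETS (23.1%) and, beside no-SP4 regions, for both E-boxes, and, beside no-DN regions, lowest for CTCF (1.92%).

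The 12 no-SP8 regions with the highest value at their weakest stage were strong DN, DP and SP4 peaks with no SP8 call. All 12 were distal, 6 in introns and 6 between genes. The highest (chr5:31997118-31997476, mm10) lay in an intron of *Babam2*, a subunit of deubiquitinase complexes that act in DNA repair. Its fold enrichment was 25.3 at DN, 13.1 at DP and 18.96 at SP4, and the nearest SP8 peak was 12478 bp away. Second in order, the region at chr16:10961403-10961821 lay in an intron of *Litaf*, an endosomal protein, with folds of 12.6, 14.2 and 13.3. An SP8 peak at percentile 65.98 lay 2146 bp away. Within 100 bp of its summit 60.2% was repeat sequence.

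The next region (chr9:43489023-43489530) stood 152908 bp from *Trim29*, a tripartite motif protein, and was, of these 12, the farthest from an SP8 peak, at 55397 bp. Its folds were 26.7 (DN), 20.7 (DP) and 12.6 (SP4), and it held no repeat sequence in the window. A region inside the model of *Gm20388* (chr8:122208232-122208697) had folds of 23.01, 11.1 and 15.2. An intron of *Man1a*, a Golgi mannosidase, held a region (chr10:53941619-53941940) with folds of 23.05, 11.9 and 11.6. In both, the DN peak was the highest of the 3.

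Against the general order, a few regions were highest at SP4. The region 60578 bp from *4930432M17Rik* (chr3:121609924-121610184) had folds of 10.7 at DN, 10.1 at DP and 22.7 at SP4. The region in an intron of *Ntn1* (chr11:68300199-68300760), which encodes the guidance cue netrin 1, had folds of 12.3, 10.4 and 17.0. The region 23807 bp from *Ano6* (chr15:95766562-95767036), which encodes a phospholipid scramblase, had folds of 9.66, 10.5 and 11.4, with an SP8 peak 842 bp away.

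Folds of the remaining 4 lay between 9.59 and 19.9. They lay 44189 bp from *Tns3* (chr11:8708724-8709009), a tensin of cell adhesions, 7647 bp from *Pex7* (chr10:19915336-19915659), a receptor for peroxisomal import, in an intron of *Pnkd* (chr1:74341970-74342236) and 317567 bp from *Ankrd50* (chr3:38131245-38131692). The *Pnkd* window was 75.1% repeat sequence. The region assigned to *Ankrd50* had folds of 18.1, 9.59 and 12.2 and an SP8 peak 861 bp away.

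**Figure D5:**
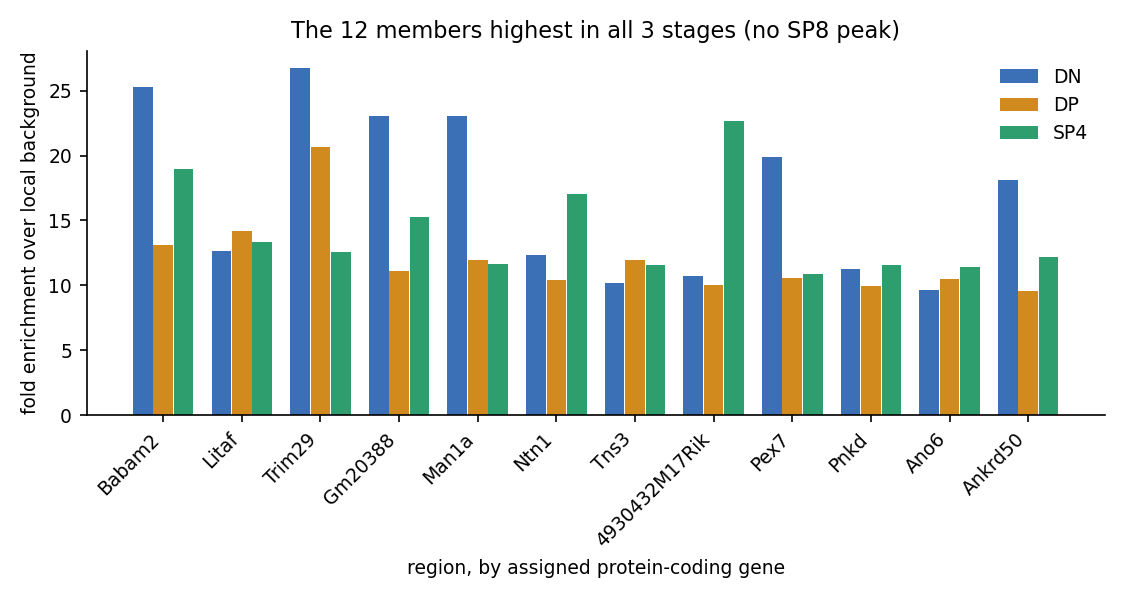
Fold enrichment over the local background at DN, DP and SP4 (bars, y axis from 0) of the 12 no-SP8 regions with the highest value at their weakest stage, in order, named by the assigned protein-coding gene. Values run from 9.59 (DP, *Ankrd50*) to 26.7 (DN, *Trim29*), and no bar is drawn for SP8 because no SP8 peak was called.

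Assigned to the protein-coding gene they lay in or nearest to, the no-SP8 regions fell to 3824 of the 17320 genes with any region. A single region fell to 2676 genes, 709 genes had 2 and 439 had 3 or more. *Gm20388* had the most, 25 of its 486 regions, over a gene model of 4435 kb that spans many other genes. *Runx1*, a factor of the T lineage from its start, had 14 of 199 regions, 3 of them in the gene and 11 outside it. *Zmiz1*, a coactivator that works with NOTCH1, had 14 of 215. *Sall3*, a zinc finger factor, had 12 of 145 and *3110018I06Rik* 11 of 214.

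The other 7 genes with the most no-SP8 regions had 9 each. These made up 13.4% of the 67 regions of *Fmnl2*, a formin of the actin cytoskeleton, 10.1% of the 89 regions of *Tshz2* and 9.47% of the 95 regions of *Rptor*, the mTORC1 scaffold. None of these 3 genes had a no-SP4 region. That class made up 2.24% of all merged regions, so that few would fall to genes with 67 to 95 regions. Lower shares of no-SP8 regions were found at *Nav2* (9 of 116), *Lpp* (9 of 172), *Wwox* (9 of 174) and *Dad1* (9 of 205). These genes were chosen for their counts, and genes with many regions have more chances of a no-SP8 region. Over all merged regions the share was 3.14%, and *Dad1* (4.39%) and *Wwox* (5.17%) were nearer to it than *Fmnl2*.

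The 9 regions assigned to *Dad1* lay 63.4 to 586 kb from it, inside the T cell receptor alpha and delta gene segments, which were not counted as protein-coding genes. The receptor loci were looked at after this was seen. The alpha and delta locus (chr14:52427928-54224206) held 12 no-SP8 regions, 1 no-SP4 region and 126 regions of all 4 stages. Of its 138 regions called at DN, DP and SP4, 8.70% (5.04 to 14.6%) lacked an SP8 peak, near the 8.43% of all regions. In the beta locus 5 of 41 such regions lacked an SP8 peak (12.2%, 5.32 to 25.5%) and in the gamma locus 2 of 8 (25%, 7.15 to 59.1%), with intervals that contained 8.43%. A region at a variable segment of the alpha locus (chr14:53684076-53684453) was at percentile 82.5 at DN, 89.2 at DP and 38.0 at SP4. Cells at DP and SP stages have deleted parts of these loci during rearrangement, and the part of DNA copy number in these calls was not tested.

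Around genes of the lineages, no-SP8 regions were as frequent as elsewhere or less so. Regions were counted in or within 50 kb of the genes of 10 lists, of 130 genes in all. The share of each list is read beside the 8.43% of all regions called at DN, DP and SP4. Counts for single genes are instead out of all merged regions near the gene. Of all merged regions, 3.14% were no-SP8 and 2.24% no-SP4 regions. The CD4 lineage list had a no-SP8 region at 8 of 15 genes and the CD8 and cytotoxic list at 5 of 16. Their genes had 754 and 410 merged regions within 50 kb. No share over all genes by this rule stands beside such counts of genes, so they are not compared between lists. Of the regions called at DN, DP and SP4 near CD4 lineage genes, 17 of 276 lacked an SP8 peak (6.16%, 3.88 to 9.64%). Near CD8 and cytotoxic genes it was 7 of 165 (4.24%, 2.07 to 8.50%). Both intervals contained 8.43%, and they overlapped each other. Near CD4 lineage genes there were 17 no-SP8 and 23 no-SP4 regions, and near CD8 and cytotoxic genes 7 and 7.

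The highest region of a list is here the one with the highest percentile at its weakest stage. Among the CD4 lineage genes it was in an exon of *Rora* (chr9:69381646-69382302), a nuclear receptor, with percentiles of 67.9 (DN), 75.9 (DP) and 62.3 (SP4). *Rora* had 5 no-SP8 regions of 100 within 50 kb. *Satb1*, a chromatin organiser of thymocytes, had a region 31035 bp away (chr17:51704865-51705152) at 88.5, 95.9 and 55.3, above the *Rora* region at DN and DP. Its window held both E-boxes. *Tox*, required for CD4 lineage development, had 3 no-SP8 and 0 no-SP4 regions of 75, the highest in an intron (chr4:6808940-6809215) at 92.0, 73.6 and 19.3. *Gata3* had 3 of 44, and *Zbtb7b*, which encodes the CD4 lineage factor ThPOK, had 1, in an exon of the neighbouring *Dcst2* at 7.49, 13.7 and 23.7. *Cd4* itself had none. In the CD8 list the highest region by its weakest stage was inside *Itgae*, an integrin of CD8 T cells, in an exon of *Haspin* (chr11:73136652-73136884), at 58.2, 19.9 and 38.3. An SP8 peak lay 725 bp from it. The region within 50 kb of *Cd8a*, higher at DN and DP than the *Itgae* region, in an intron of *Rmnd5a* (chr6:71409825-71410351), was at 76.9 (DN), 95.9 (DP) and 19.3 (SP4), with the nearest SP8 peak 10342 bp away.

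Within 50 kb of genes of the early and DP stages the share was close to that of all regions, with intervals that overlapped those of the CD4 and CD8 lists. The early T progenitor list had no-SP8 regions at 8 of 14 genes and 17 of 202 regions (8.42%, 5.32 to 13.1%). Near the same genes there were 13 no-SP4 regions. *Erg*, an ETS factor of progenitors, had 7 no-SP8 regions and 1 no-SP4 region of 68, the highest in an intron (chr16:95488892-95489640) at percentiles of 90.2, 89.0 and 45.01 and 29252 bp from an SP8 peak. The DP list had no-SP8 regions at 6 of 10 genes and 11 of 143 regions (7.69%, 4.35 to 13.2%). Within gene bodies alone the shares were lower, 4.44% (1.74 to 10.9%) of 90 early and 3.23% (0.889 to 11.02%) of 62 DP regions, and both intervals still contained 8.43%. Near *Themis*, needed for selection, a region 2907 bp away (chr10:28665212-28665453) was at 52.3, 77.5 and 50.6. *Tcf12*, an E protein, had 4 no-SP8 and 4 no-SP4 regions of 73. Near all genes of the DP list there were 11 no-SP8 and 15 no-SP4 regions. At *Ptcra*, the pre-T cell receptor alpha chain, a region 941 bp away (chr17:46764653-46764846) was lowest at DN (15.5) and highest at SP4 (84.4). An SP8 peak lay 879 bp from that region.

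A further 3 lists were below the share of all regions, with Wilson intervals that did not reach 8.43%. T cell receptor signalling genes lacked an SP8 peak at 11 of 301 regions (3.65%, 2.05 to 6.42%), maturation and egress genes at 7 of 202 (3.47%, 1.69 to 6.98%) and lineage factors of all stages at 21 of 385 (5.45%, 3.59 to 8.19%). The median mean percentile of their regions was 66.2, 64.2 and 58.9, against 65.9 for all regions called at the 3 stages. The highest regions of these lists were near *Malt1*, a signalling protease (51.3, 36.1 and 65.8), near *Id3*, an inhibitor of E proteins (61.7, 44.7 and 55.0), and in an intron of *Nfkb1*, a subunit of NF-kB (48.9, 45.2 and 60.4). Their nearest SP8 peaks were 5024, 583 and 4303 bp away. *Runx1* had 7 no-SP8 regions of 114 within 50 kb. Within that distance the 3 lists had 20, 14 and 34 no-SP4 regions, against 11, 7 and 21 no-SP8 regions. Within gene bodies alone, signalling genes (3 of 134, 2.24%, 0.764 to 6.38%) and lineage factors (13 of 259, 5.02%, 2.96 to 8.40%) stayed below 8.43%, while the interval of maturation and egress genes (1 of 57, 1.75%, 0.310 to 9.29%) contained it.

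The MHC class I and interferon list had 6 of 122 regions (4.92%, 2.27 to 10.3%). The highest was near *Nlrc5*, an activator of MHC class I genes (67.6, 59.9 and 38.8), and 826 bp from an SP8 peak. Lists of other cell types were counted as well, because a DN sort can hold other cells. The B cell list had 9 of 94 regions (9.57%, 5.12 to 17.2%). Of these no-SP8 regions, 5 were at *Ebf1*, which had 45 merged regions of any class within 50 kb. Another 1 was near *Pax5* (81.6, 56.8 and 70.8), and both genes encode factors of B cell identity. The myeloid list had 3 of 105 (2.86%, 0.976 to 8.07%, below 8.43%), the highest near *Itgam* (50.2, 56.5 and 56.4) and only 77 bp from an SP8 peak. Within gene bodies alone the counts were 2 of 27 (MHC and interferon, 7.41%), 3 of 20 (B cell, 15%, 5.24 to 36.0%) and 0 of 12 (myeloid, Wilson interval up to 24.2%), and each interval contained 8.43%. Expression of these markers was not measured, and the part of other cells in the sorted DN, DP or SP4 libraries was not tested.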

How the data were processed

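Open chromatin of the sorted thymocyte stages was profiled by ATAC-seq in 16 libraries of 4 mice. The authors aligned trimmed reads to mm10 with BWA, removed duplicates, down-sampled libraries to their median depth, pooled mice within a stage, and used MACS2 to call peaks at 5% FDR. Tool versions were not given in the sources used here, and the study gives pooled depth as a narrow range over stages, not for each list. The fold enrichment at the summit is a ratio over local background, computed by the authors. The −log10 q of each peak and its score were deposited by the authors as MACS2 wrote them, and the score was not analysed. Values were used to rank peaks within a list.

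Peaks were merged in Python 3.11.15 with pandas 2.3.3, with an overlap of at least 1 bp. TSSs and exons came from 249203 transcripts of GENCODE M21 and RefSeq (mm10). All peaks lay on chromosomes 1 to 19. Shares carry 95% Wilson intervals from scipy 1.17.1, for counting error only, and counts of chromosomes with the same direction. No test between stages was run, since each list is 1 sample and regions are not replicates. Motifs were 28 consensus sequences matched without mismatch. The steps were tested on simulated lists.

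The regions, gene lists and motifs were chosen with earlier results of these data known. The text names the 12 regions highest at their weakest stage, the 12 protein-coding genes with the most regions, and genes of the 10 lists within 50 kb of a region, with values for the highest region of each list. Values for other regions of listed genes and for the receptor loci were added after they were seen.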

Additional observations from a re-analysis of the deposited data

How the results depend on the processing

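The number of no-SP8 regions was 5640 with a q-value of at most 0.001 in all lists, 5424 with that threshold in DN, DP and SP4 alone, 5522 when peaks within 100 bp were merged, 4814 without an SP8 peak within 500 bp and 6067 DN peaks when a shared peak meant 50% of the shorter one, all within 1.5 times 5837. Equal numbers of peaks per list moved it to 3472. The promoter share moved to 13.3% with promoters of 1000 bp, 3.97% by the summit alone and 4.75% with protein-coding transcripts alone, which also moved the distal share to 85.5% and the median TSS distance to 17201 bp. With these settings regions of all 4 stages had promoter shares of 30.2%, 15.5% and 20.5%. The share highest at SP4 was 15.4% by −log10 q and 18.8% with equal numbers of peaks. Weighting the regions of all 4 stages to the height of the no-SP8 regions, an alternative chosen after seeing the data, moved the difference in promoter share from -17.1 to -9.16 percentage points and in distal share from 16.4 to 11.4. Of 28 motifs, 17 had a log2 ratio above 0 to regions of all 4 stages, and 15 to 18 under the alternatives. Ratios with separate intervals that changed sign were those of CRE (0.52), IRF (0.13), IKZF (-0.016) and NFY (0.45) against no-SP4 regions, and of NFY after weighting (0.15). The cause of these moves was not tested. No paired analysis was possible because peaks were called on reads pooled over mice, and for the same reason no mouse could be left out. A region just under the calling threshold counts as without a peak, and depth limits every list in this way.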
